A study of Arabidopsis thaliana with 6 samples.

Results

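AT1G78820, AT1G78830, AT1G78850 and AT1G78860 of Arabidopsis thaliana are 4 mannose-binding lectin genes that lie side by side on chromosome 1, interrupted by the F-box gene AT1G78840. They were taken by gene ID from the 38194 loci in the count files, and all 4 were found. The cluster was selected on the measured level of AT1G78820 with dexamethasone against mock in these same libraries, so its members' values with dexamethasone and mock are given as a description, without a test. The seedlings carried 35S:GR-TCP5, a fusion of the leaf-shape regulator TCP5 with the steroid-binding domain of the glucocorticoid receptor under the 35S promoter, which is active in most tissues; dexamethasone lets the fusion enter the nucleus. All were 12 days old and grown at 22 °C with 14 h of light. The DEX group (3 libraries) received a dexamethasone solution for 4 h, labelled as 10 mM, a unit that could not be checked here. The mock group (3 libraries) received the same ethanol and silwet-L77 solution without dexamethasone. Both groups carried the transgene, and effects of the steroid itself cannot be told apart from those of TCP5. The labels name no number of independent lines, and do not say whether replicates were separate cultures, so the spread behind each p-value may be technical.

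Libraries held 33428836 to 76859163 exon counts. Replicates 1 and 2 of each group were sequenced in a first run and replicate 3 of each in a second, according to the dates in the labels. TCP5 (AT5G60970) itself had 233, 263 and 964 CPM in DEX libraries and 323, 296 and 1177 CPM in mock libraries, where CPM is the gene's count relative to the TMM-scaled size of its library. Root transcripts differed between the runs. The summed level of 12 root genes was 1193 CPM with DEX and 3269 CPM with mock in the second run, against 302 to 366 CPM with DEX and 557 to 717 CPM with mock in the first. Most of that sum was PYK10. The other 11 root genes summed to 68.9 CPM (DEX) and 163 CPM (mock) in the second-run libraries and to between 0.346 and 1.45 CPM in the first-run libraries, in which 3 to 7 of them were at 0. CASP5 of the endodermis and EXPA7 of root hairs were at 0 in all first-run libraries. In bulk samples, fewer cells of a type and less RNA per cell cannot be told apart.

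These proteins belong to the monocot-bulb, or GNA-related, lectins, whose beta-prism domain can bind mannose on glycoproteins. They also carry a PAN/apple domain, and unlike the related G-type lectin receptor kinases they have no kinase domain. Their carrot relative EP1 is a glycoprotein secreted by epidermal cells. The AT1G78850 product has been described as GAL1, a partner of the purple acid phosphatase PAP26, which recovers phosphate from organic compounds in the vacuole and outside the cell during phosphate shortage. AT1G78860 encodes its near copy. The roles of AT1G78820 and AT1G78830 are less well known.

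The cluster consisted of 2 pairs of close paralogs in the TAIR10.1 RefSeq annotation. AT1G78820 and AT1G78830 encode proteins of 455 residues each that were 89.5% identical over 455 aligned positions, and their coding sequences were 88.7% identical. AT1G78850 and AT1G78860 encode 441 and 443 residues that were 93.2% identical, with coding sequences 92.1% identical. Between the pairs, protein identity was only 45.7% to 49.3%. All 4 genes lie on the minus strand, have 1 annotated exon each and overlap no other listed locus. AT1G78820 and AT1G78830 are 886 bases apart, with 3086 bases between AT1G78830 and AT1G78850 and 2467 bases between AT1G78850 and AT1G78860. The deposited lengths of 1836, 1956, 1676 and 1689 bases equalled the annotated ones.

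The 120-base window in which AT1G78820 and AT1G78830 differed most opens both coding sequences (bases 1 to 120, counted from the A of the start codon). It is shown because its 30 differences, in capitals, are among those that let reads of these copies be told apart. Sequences here are from RefSeq TAIR10.1, looked up by locus and given 5′ to 3′ on the coding strand.
AT1G78820: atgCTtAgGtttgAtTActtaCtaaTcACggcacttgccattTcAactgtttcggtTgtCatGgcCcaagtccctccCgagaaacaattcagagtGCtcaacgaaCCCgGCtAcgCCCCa
AT1G78830: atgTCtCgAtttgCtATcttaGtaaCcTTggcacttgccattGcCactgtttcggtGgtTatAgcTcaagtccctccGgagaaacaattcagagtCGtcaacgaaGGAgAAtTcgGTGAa
By contrast, the longest run identical in both transcripts covers 98 bases (coding bases 715 to 812 of AT1G78820), and a read that falls wholly within it cannot be assigned to either.
AT1G78820/AT1G78830 shared: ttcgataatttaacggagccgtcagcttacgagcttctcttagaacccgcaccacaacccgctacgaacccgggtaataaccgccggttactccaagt
In the other pair, the most different window (coding bases 647 to 766 of both) held 16 differences, again in capitals.
AT1G78850: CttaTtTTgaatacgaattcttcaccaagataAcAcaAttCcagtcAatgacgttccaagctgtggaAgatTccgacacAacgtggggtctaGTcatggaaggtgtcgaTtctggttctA
AT1G78860: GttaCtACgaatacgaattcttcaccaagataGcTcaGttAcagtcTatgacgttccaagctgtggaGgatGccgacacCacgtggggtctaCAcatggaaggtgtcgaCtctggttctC
Their longest identical run was 70 bases. At a read length of 50 bases, 2.38% to 2.74% of the positions in each transcript matched another of the 4 exactly, and at 100 bases none did (0 positions). The sources used here name neither the read length nor how reads with several matches were counted, and exchange of reads within a pair was not tested.

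AT1G78820 was the member with the large difference. It had 76.8, 82.9 and 97.7 CPM in the DEX libraries, against 16.2, 19.9 and 21.6 CPM in the mock libraries. The lowest DEX library was thus far above the highest mock library. The means were 85.8 ± 10.7 CPM for DEX and 19.2 ± 2.72 CPM for mock (SD, n = 3 each), and the fitted log2 fold change, DEX over mock, was 2.15 ± 0.10 (SE), or 4.45-fold. By pairs of the same replicate number the fold was 4.72, 4.16 and 4.53, so the second-run pair lay between the other two. It was the 1 member of 4 with all DEX libraries above all mock libraries, as were 3.53% of the 21934 genes with enough counts to test; nothing is read from this, since the cluster was chosen for it. By edgeR's quasi-likelihood test over all these genes, without regard to the members, 1.09% were higher and 3.58% lower with DEX at an adjusted p under 0.05.

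AT1G78830, the closest paralog, was far more abundant and differed much less. It had 448, 510 and 547 CPM with DEX, against 398, 348 and 454 CPM with mock. The groups overlapped, since the second-run mock library exceeded the lowest DEX library, although DEX was higher within each of the 3 replicate pairs. The fitted log2 fold change was 0.33 ± 0.11, or 1.26-fold.

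AT1G78850, the gene of the PAP26 partner, had 230, 267 and 730 CPM with DEX and 171, 155 and 534 CPM with mock. Its groups overlapped across runs. Within each run DEX was above mock, but the second run holds 1 library of each group, where no overlap is possible. The share of all genes with this order was not computed. The log2 fold change was 0.56 ± 0.11, or 1.47-fold, and by replicate pair the fold was 1.35, 1.73 and 1.37. AT1G78860 was the least abundant member, at 9.65, 8.72 and 28.0 CPM with DEX and 9.88, 7.85 and 23.4 CPM with mock. DEX was higher in 2 of its 3 pairs and lower in the first. Its log2 fold change of 0.12 ± 0.12 was about the size of its SE.

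**Figure D1:**
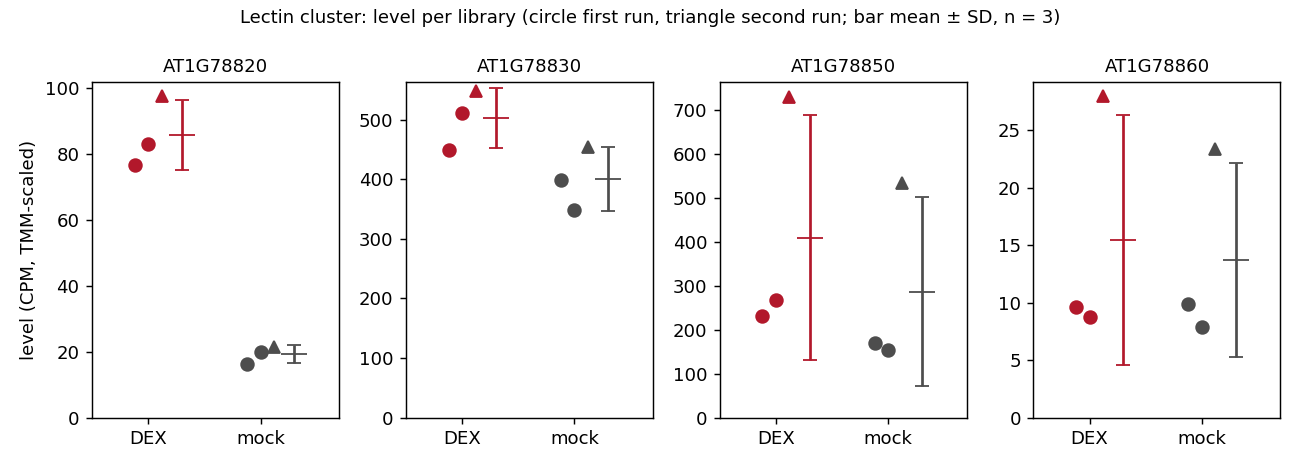
Level of each lectin gene (CPM after TMM scaling, vertical axis from 0) in the 3 DEX libraries (left) and the 3 mock libraries (right), with circles for the first run, triangles for the second and bars for the mean ± SD. AT1G78820 was at 76.8 CPM or more in each DEX library and at 21.6 CPM or less in each mock library, while the triangles of AT1G78850 and AT1G78860 stand far above the circles in both groups.

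A difference of the size of AT1G78820's was thus seen in 1 of the 4 genes. The ratio of AT1G78820 to AT1G78830 within a library needs no scaling between libraries. Counted per base of length, AT1G78820 made up 15.4%, 14.8% and 16.0% of the pair with DEX, against 4.17%, 5.75% and 4.81% with mock. The log2 ratio of the pair differed between DEX and mock by 2.07, 1.505 and 1.91 in replicates 1, 2 and 3. In the other pair, AT1G78850 made up 96.0%, 96.9% and 96.3% with DEX and 94.6%, 95.2% and 95.8% with mock. The log2 ratio of AT1G78850 to AT1G78860 was higher with DEX in all 3 pairs, by 0.46, 0.64 and 0.19, a shift well below that of the first pair. No library pair gave a fold under 4.16 for AT1G78820 or over 1.73 for any of the other members.

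Per length, the order of the genes was the same in both groups' means, and the response of AT1G78820 did not lift it past the abundant members. The mean level was 257 ± 25.6 RPKM (CPM per kilobase of length) for AT1G78830, 244 ± 166 RPKM for AT1G78850, 46.7 ± 5.85 RPKM for AT1G78820 and 9.15 ± 6.44 RPKM for AT1G78860 with DEX. With mock it was 205 ± 27.2, 171 ± 128, 10.5 ± 1.48 and 8.12 ± 4.999 RPKM in the same order of genes. In both groups the means of AT1G78830 and AT1G78850 differed by less than the SD of AT1G78850, which spans both runs. Within a run their order was constant. The ratio of AT1G78850 to AT1G78830 was 0.501 to 0.611 in the first-run libraries and 1.56 (DEX) and 1.37 (mock) in the second run. AT1G78820 and AT1G78860 did not differ beyond their spread with mock, where the first-run libraries had 8.85 and 10.9 RPKM for AT1G78820 and 5.85 and 4.65 RPKM for AT1G78860, and the second-run one 11.7 and 13.8 RPKM. With DEX the lowest AT1G78820 library, at 41.8 RPKM, was above the highest AT1G78860 library, at 16.6 RPKM. AT1G78820 held 8.83 ± 1.79% of the cluster's counts per length with DEX and 2.87 ± 0.89% with mock, and the 4 genes together summed to 414, 471 and 785 RPKM with DEX and 320, 286 and 577 RPKM with mock.

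**Figure D2:**
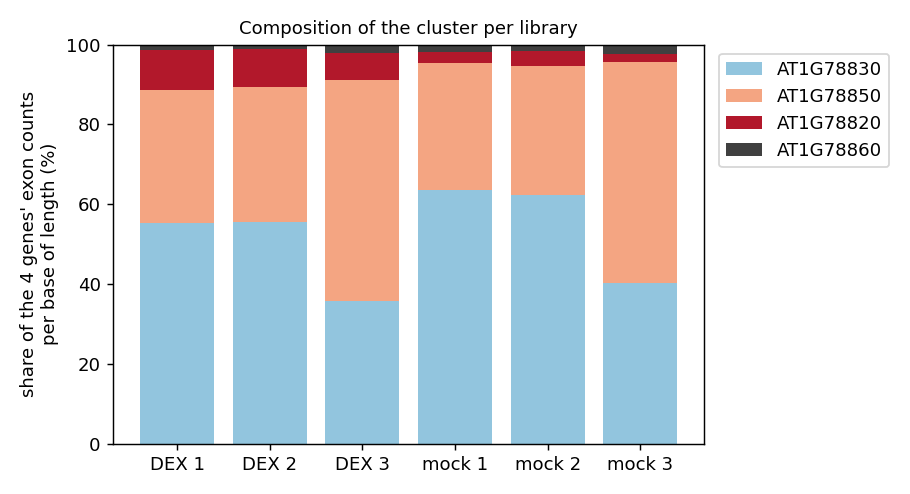
Share of each gene in the 4 genes' exon counts per base of length (percent, vertical axis) in each library, DEX left and mock right. AT1G78820 took 10.1%, 9.59% and 6.78% with DEX and 2.76%, 3.798% and 2.04% with mock, and AT1G78850 took 55.5% (DEX) and 55.3% (mock) in the 2 second-run libraries.

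Almost no counts lay in introns. AT1G78820 and AT1G78830 had 0 intron counts in all 6 libraries, AT1G78850 had 1 (in DEX replicate 1) and AT1G78860 had 2 (in mock replicate 1). A count of 0 allows an intron share of up to 0.0909% in the shallowest DEX library of AT1G78820 and 0.448% in its shallowest mock library, counting error only. Since the annotation gives these genes no intron, the share is no measure of unspliced RNA, and the 2.07% to 2.57% of intron counts over all genes gives the scale for other loci. The exact Clopper-Pearson 95% interval for the share of AT1G78860 in mock replicate 1, with 2 intron and 723 exon counts, was 0.0334% to 0.993%.

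The change at AT1G78820 was set against the genes around it, 10 protein-coding genes on each side and AT1G78840 between the members. Of these 21 neighbours 18 had enough counts to test and 0 passed (edgeR quasi-likelihood, adjusted p under 0.05), against 4.67% over all genes. At an unadjusted p under 0.05 there were 2, where 4163 of all 21934 genes were. DESeq2 also called 0 of the neighbours, against 2065 of all genes. The neighbours' log2 fold changes, DEX over mock, ranged from −0.92 to 0.61 with a median of 0.08, where the median over all genes was 0.00. The nearest gene on the far side of AT1G78820, LSH7, averaged 0.214 CPM in DEX and 0.618 CPM in mock libraries, too low to test. The F-box gene AT1G78840 averaged 0.0692 CPM in DEX and 0.0222 CPM in mock libraries and was not tested. The next gene, AT1G78810, had a log2 fold change of 0.06 ± 0.12, and UBC35, on the other side of AT1G78860, −0.07 ± 0.10.

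**Figure D3:**
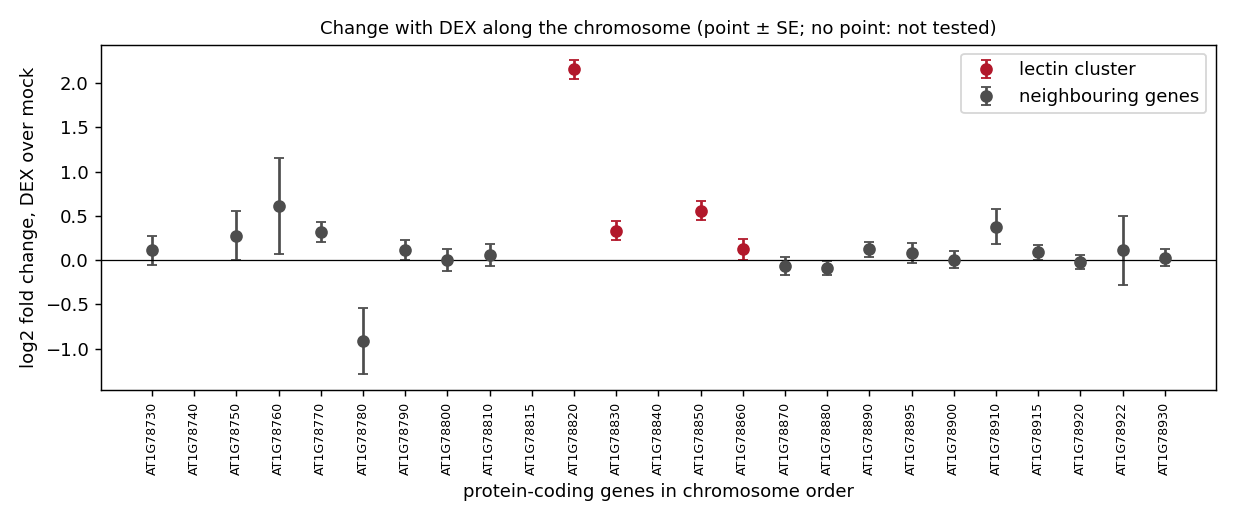
Log2 fold change, DEX over mock, with its SE (vertical axis) for the 4 lectin genes (red) and the 21 neighbouring protein-coding genes (grey) in chromosome order; genes without a point were too low to test. AT1G78820 stands at 2.15, and the tested neighbours lie between −0.92 and 0.61.

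Class II TCP proteins such as TCP5 bind sites related to GTGGNCCC, and class I TCP proteins sites related to GGNCCCAC, and both can match at once since they share GGNCCC. Both, and the short TCP4 motif GGACCA, were searched on both strands in the 250 bases before each annotated start. AT1G78820, AT1G78830 and AT1G78850 held 0 matches to any of them. AT1G78860, the member with the smallest fold, held 1 match to GGACCA, from 231 to 226 bases before its start. Over 27443 protein-coding genes, 0.670% held GTGGNCCC in this window, 1.09% held GGNCCCAC and 5.90% held GGACCA. In 1000 bases, AT1G78820 held 2 matches to GGACCA, AT1G78860 2, AT1G78850 1 and AT1G78830 0, where 21.9% of genes held at least 1. Of the AT1G78820 matches, that from 988 to 983 bases before its start lies within AT1G78830, which is 886 bases away. The other lies from 807 to 802 bases before the start. AT1G78850 also held 1 match to GGNCCCAC there, which 2.46% of genes held. The 250 bases upstream of the close paralogs are given, minus strand of TAIR10.1, since these copies share most of their coding sequence and differed in fold.
AT1G78820 upstream: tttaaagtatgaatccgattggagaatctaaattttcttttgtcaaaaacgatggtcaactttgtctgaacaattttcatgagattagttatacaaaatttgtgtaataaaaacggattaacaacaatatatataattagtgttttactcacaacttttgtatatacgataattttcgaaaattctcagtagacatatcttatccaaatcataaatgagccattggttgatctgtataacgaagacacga
AT1G78830 upstream: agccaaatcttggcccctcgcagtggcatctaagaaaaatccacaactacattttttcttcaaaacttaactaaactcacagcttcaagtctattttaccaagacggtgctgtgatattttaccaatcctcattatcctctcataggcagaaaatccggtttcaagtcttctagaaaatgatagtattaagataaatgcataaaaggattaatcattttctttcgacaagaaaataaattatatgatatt

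Sequencing run, which played no part in choosing the cluster, divided it along the paralog pairs. AT1G78850 was at 730 (DEX) and 534 (mock) CPM in the second run, against 155 to 267 CPM in the 4 first-run libraries. Its log2 fold change, second run over first, was 1.63 ± 0.11, or 3.11-fold (edgeR quasi-likelihood adjusted p = 1.42e-05). AT1G78860 was at 28.0 (DEX) and 23.4 (mock) CPM in the second run and at 7.85 to 9.88 CPM in the first, a log2 fold change of 1.51 ± 0.12 (adjusted p = 3.69e-05). No second-run library of either gene overlapped the first run. The share of all genes separated in this way was not computed, and 55.5% of all genes passed in the run contrast. AT1G78820 and AT1G78830 had log2 fold changes of 0.27 ± 0.10 (adjusted p = 0.0547) and 0.24 ± 0.11 (adjusted p = 0.107), which did not pass, and AT1G78820 passed without mock replicate 2 (adjusted p = 0.0480). The 2 of 4 members higher in the second run are to be read against 27.9% of all genes higher and 27.6% lower in that run. The log2 ratio of AT1G78850 to AT1G78830 averaged 0.55 in the 2 second-run libraries and −0.85 in the 4 first-run libraries. Its difference of 1.40 had an exact two-sided permutation p of 0.133. With 2 against 4 libraries this is the smallest p that the test can give, since it doubles the smaller tail. The ratio within each pair of close paralogs differed little between the runs, by 0.03 for AT1G78820 to AT1G78830 and by 0.13 for AT1G78850 to AT1G78860.

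The root genes listed above moved with this run difference, and their part in it was not tested. TCP5 was also higher in the second run, by 1.94 ± 0.11 on the log2 scale (edgeR quasi-likelihood adjusted p = 5.93e-06), as were 27.9% of all genes. Its part was not tested either. Root genes in the second-run libraries summed to 1193 CPM (DEX) and 3269 CPM (mock), and AT1G78850 had 730 CPM (DEX) and 534 CPM (mock). Root genes other than PYK10 were near 0 in the first-run libraries, each of which held 155 CPM or more of AT1G78850. These levels are a description, and the source of the run difference of AT1G78850 was not tested. The summed level of 7 epidermis genes was 1071 to 1240 CPM with DEX and 1198 to 1277 CPM with mock. The DEX effect of the second run minus that of the first, fitted as the product of run and treatment, is given as a description, since the second run holds 1 DEX and 1 mock library. The log2 difference was 0.04 ± 0.22 for AT1G78820, −0.09 ± 0.25 for AT1G78830, −0.16 ± 0.24 for AT1G78850 and 0.21 ± 0.25 for AT1G78860. Over all genes the product term called 0 (0%; 1436 at an unadjusted p under 0.05; DESeq2 called 47).

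**Figure D4:**
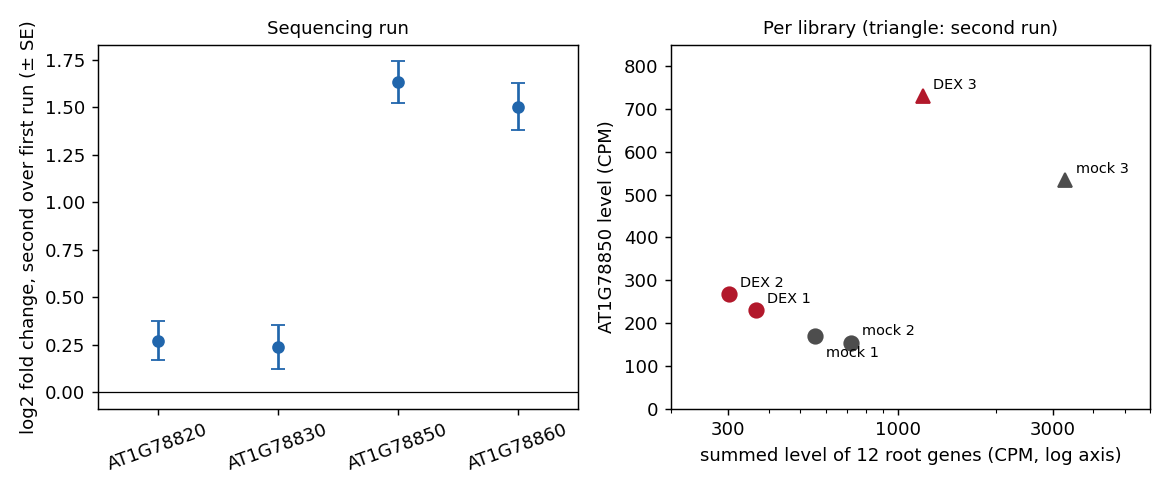
Left, log2 fold change of each lectin gene, second over first run, with its SE; right, level of AT1G78850 (CPM) against the summed level of 12 root genes (CPM, log axis) in each library, triangles for the second run. The values stand at 0.27, 0.24, 1.63 and 1.51, and the second-run libraries lie to the upper right of the first-run ones, DEX 3 above mock 3.

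The genes whose pattern over the 6 libraries lay nearest to that of AT1G78820 were found among 19433 other genes averaging 1 CPM or more, by the Euclidean distance between log2 CPM profiles centred on each gene's mean. The nearest was ChiC (AT4G19810), a chitinase-domain gene, at a distance of 0.68, followed by the trehalose-phosphate phosphatase gene TPPE (1.12), the glycosyltransferase gene AT1G01390 (1.18), AT3G15450 (1.27) and the tautomerase-family gene AT3G51660 (1.35). ChiC was at 32.9, 44.9 and 48.6 CPM with DEX and at 11.03, 13.1 and 8.86 CPM with mock. Nothing is read from the lack of overlap, since these genes were chosen for their likeness to AT1G78820. Pearson's r with AT1G78820 over the 6 libraries lay between 0.86 and 0.97 for these 5, a description of libraries that share runs and groups. For AT1G78850 the nearest were the TIR-domain gene AT1G72900 (0.25) and PLDGAMMA1 (0.28), and PLDGAMMA1 had 189 (DEX) and 136 (mock) CPM in the second run and 43.2 to 59.0 CPM in the first. For AT1G78830 they were AT1G29418 (0.12) and E2F3 (0.13), and for AT1G78860 AT5G41900 (0.23) and G6PD3 (0.23).

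**Figure D5:**
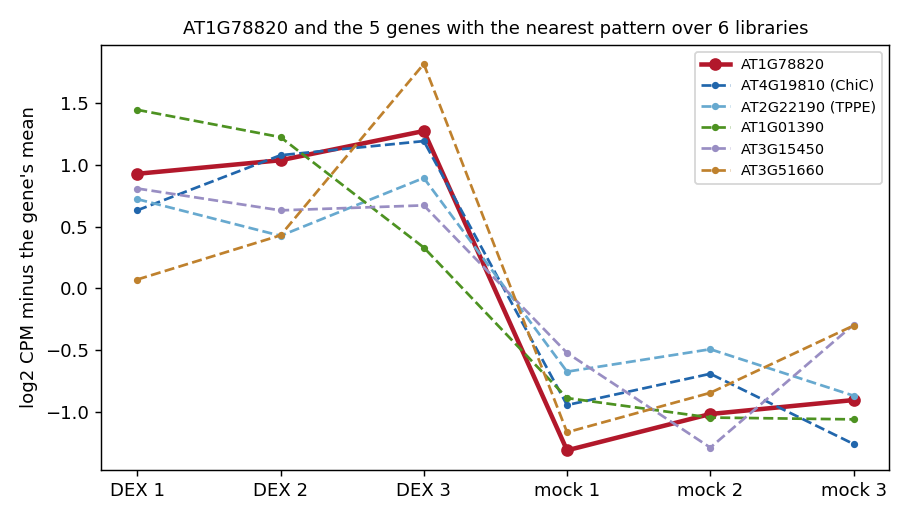
Log2 CPM minus each gene's own mean (vertical axis) in the 6 libraries, DEX left and mock right, for AT1G78820 (solid) and the 5 genes with the nearest pattern (dashed); lines join libraries only to guide the eye. All 6 genes were above their mean in each DEX library and below it in each mock library, and the 5 dashed genes were chosen for likeness of pattern.

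Other lectins of the same fold were looked at beside the cluster. Of 8 further GNA-domain lectin genes without a kinase, 4 had enough counts to test. Between DEX and mock 0 of these passed, where 4.67% of all genes did. At an unadjusted p under 0.05 there were 2, where 4163 of all 21934 genes were. DESeq2 called 0 of the 4, against 2065 of all genes. The median log2 fold change of these 4 lectin genes was −0.02. AT3G51710, annotated like AT1G78820 as a lectin with an Apple-like domain, averaged 3.11 ± 0.50 CPM in DEX and 2.07 ± 0.46 CPM in mock libraries. Its log2 difference was 0.60 ± 0.24 (edgeR adjusted p = 0.231). AT5G03700 had −0.37 ± 0.11 (adjusted p = 0.101). In the run contrast 2 of the 4 were higher in the second run, where 27.9% of all genes were. AT5G03700 and AT5G18470 had log2 fold changes, second over first run, of 1.81 ± 0.11 (adjusted p = 8.95e-06) and 1.61 ± 0.22 (adjusted p = 0.00124). AT2G41890, at 0.28 ± 0.11 (adjusted p = 0.0638), and AT3G51710, at 0.00 ± 0.24 (adjusted p = 0.999), did not pass. AT5G18470 overlaps other listed loci, with which it can share reads.

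Of the G-type lectin receptor kinase genes, whose extracellular part has the same lectin fold, 33 were tested. Among these, 1 rose and 1 fell, where 1.09% of all genes rose and 3.58% fell. The median log2 fold change of these kinase genes was −0.06, and DESeq2 called 5 of them, against 2065 of all 21934 genes. AT1G61430, which overlaps AT1G61420, rose by 0.52 ± 0.09 (edgeR adjusted p = 0.0184), and AT1G11330 fell by 0.47 on the log2 scale (adjusted p = 0.0367). With 1 library left out, AT1G61430 kept its call in 1 of 6 cases and AT1G11330 in 0. The jacalin-related lectins share the name mannose-binding lectin but belong to another lectin family. Of 19 tested, 0 rose and 4 fell, against 1.09% and 3.58% of all genes, and their median was −0.78. DESeq2 called 6 of the 19, against 2065 of all 21934 genes. Root genes were lower with DEX in the same libraries, and their part in these counts was not tested. Of 5 root genes tested, 2 fell and the median was −1.42. PYK10, which overlaps AT3G09250, changed by −1.11 ± 0.17 (edgeR adjusted p = 0.0118). The other was THAS1, a root triterpene synthesis gene, with 0, 0 and 0.829 CPM in DEX and 0.219, 0.0785 and 14.2 CPM in mock libraries (adjusted p = 0.00628). On the log2 scale, JAL31 (AT3G16430) changed by −1.47 ± 0.20 (edgeR adjusted p = 0.0127), the jacalin gene AT1G33790 −1.77 ± 0.24 (0.00870), JAL22 −0.81 ± 0.14 (0.0199) and JR1, which overlaps AT3G16460, −0.78 ± 0.17 (0.0465). AT1G33790 kept its call whichever library was left out, JAL31 in 4 of 6 cases, and JAL22 and JR1 in 1.

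PAP26 (AT5G34850), whose protein binds that of AT1G78850, averaged 130 ± 27.4 CPM in DEX and 124 ± 7.71 CPM in mock libraries. Its log2 fold change was 0.05 ± 0.11 (edgeR adjusted p = 0.858), against 0.56 for AT1G78850. Second over first run it was −0.34 ± 0.12 (edgeR adjusted p = 0.0366), against 1.63 for AT1G78850. In that contrast 27.6% of all genes were lower. Of 12 phosphate starvation and acid phosphatase genes tested, PAP17, which overlaps AT3G17800, alone passed and rose by 0.56 ± 0.11 (adjusted p = 0.0265; 0.0558 with the replicate number as a block), where 4.67% of all genes passed. With 1 library left out, PAP17 kept its call in 3 of 6 cases. Of 7 epidermis genes, the wax and suberin synthesis gene KCS2, which overlaps AT1G04210, alone passed and fell by 1.08 on the log2 scale (adjusted p = 0.0451), where 3.58% of all genes fell. It was called in 0 of 6 cases with 1 library left out, and it was 4.68 higher on the log2 scale in the second run than in the first. The epidermal regulators ATML1 and PDF2 had log2 fold changes of 0.22 ± 0.09 and 0.08 ± 0.10, neither of which passed.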

How the data were processed

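Total RNA of 6 seedling libraries was sequenced. The TruSeq kit named in the labels' protocols keeps no strand. Each deposited file held raw exon counts, intron counts and their total for every gene, beside its length, per the file headers. The submitters' processing notes list STAR and DESeq2 with no version; which counter, build and annotation were used is not given in these sources, so no coordinates are printed. Of exon counts from 1 to 20, 16.6% to 25.8% were odd, so both mates of a pair may have been counted, which was not tested. Names, gene order, lengths and sequence came from TAIR10.1 (RefSeq), which matched 37898 of 38194 loci and equalled the deposited length of 78.7% of those with exons.

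The test on exon counts used edgeR 4.0.16 under R 4.3.3 (TMM, filterByExpr with a minimum count of 10 and total of 15, robust quasi-likelihood F-test, Benjamini-Hochberg adjustment at 0.05), with run and treatment as terms, over 21934 genes; all 4 members passed the filter. SE is the log2 fold change over the square root of F. A product term tested run by treatment. The test was checked on simulated data. Alternatives were DESeq2 1.42.0, other scalings, no filter, the first run alone, a fit with no run term, one with a replicate block, exon plus intron counts and each library left out. Members, lists and rules were chosen with earlier results of these data known. Genes named are the members, changed members of the lists by adjusted p, tested neighbours and GNA-domain lectins, PAP26, TCP5 and the nearest patterns (prior count 2); other genes were chosen after their values were seen. DEX and mock libraries that share a number had correlated deviations (r across genes 0.63, 0.61 and 0.88), which meets the rule set for pairing, although replicates 1 and 2 correlated at least as well across numbers (0.69), so the data show a pairing by run. No library duplicated another (lowest chi-square per degree of freedom 27.4).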

Additional observations from a re-analysis of the deposited data

How the results depend on the processing

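The log2 fold changes of the members, DEX over mock, kept their sign under all 14 alternatives. They ranged from 2.08 to 2.25 for AT1G78820, 0.27 to 0.38 for AT1G78830, 0.49 to 0.62 for AT1G78850 and 0.05 to 0.24 for AT1G78860, the extremes coming with 1 library left out. The highest value of AT1G78820, 2.25, came without mock replicate 2. The run differences of AT1G78850 and AT1G78860 passed under all 11 alternatives. Those of AT1G78820 and AT1G78830 did not pass, except that AT1G78820 passed without mock replicate 2 (0.32, adjusted p = 0.0480), with DESeq2 (0.29, adjusted p = 0.0404) and with exon plus intron counts (0.28, 0.0471), and AT1G78830 with DESeq2 (0.26, 0.0411). With 1 library left out, AT1G78820 ranged from 0.19 to 0.32.

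The background moved far more. Between DEX and mock edgeR called 1024 genes. As separate counts, whose overlap was not computed, DESeq2 called 2065, a fit without the run term 0 (798 at an unadjusted p under 0.05) and the replicate block 571, and leaving out 1 library gave 279 to 1132. The count was 279 without mock replicate 2, 304 without DEX replicate 2, 476 without mock replicate 1, 613 without DEX replicate 3 and 630 without mock replicate 3. The 6 lists leave out the root genes. Genes tested in them were 4 GNA-domain lectins, 33 receptor kinases, 19 jacalin-related lectins, 12 phosphate genes, 7 epidermis genes and 18 neighbours. Of these, 8 were called, where 4.67% of all genes were. DESeq2 called 13 of the listed genes, against 2065 of all 21934 genes. Calls in the lists numbered 0 without the run term, 4 with the replicate block and 1 to 8 with 1 library left out. The product of run and treatment called 0 genes, and DESeq2 called 47. With the replicate block the calls of AT1G11330, JR1, PAP17, KCS2 and PLDGAMMA1 were lost (adjusted p = 0.0558 to 0.0986), and it changed no other call among the named genes.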
